A study of Mus musculus with 2 samples.

Results

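The Snail, Twist and Zeb families and the related factors Tcf15 and Scx were examined in endothelial cells derived from mouse embryonic stem cells, with and without a pulse of Mesp1. The 9 genes (Snai1, Snai2, Snai3, Twist1, Twist2, Zeb1, Zeb2, Tcf15 and Scx) were chosen by name, and every probe set that the array's annotation assigns to one of them was taken. All 9 were measured, out of 18193 genes with a named probe set, and they have 19 probe sets between them. Both samples are A2lox.Mesp1 cells of the 129/Ola background, a transgenic line in which doxycycline (dox) induces Mesp1, grown as embryoid bodies for 5 days and sorted as Flk1+Tie2+. The group called no dox received no drug. The group called dox received 250 ng/mL from day 2, and the labels place its end at day 4. Both groups carry the transgene, so the comparison is of dox-exposed with unexposed cells of 1 line, and cells without the transgene given dox were not analysed here. The question addressed is which genes differ in this endothelium after Mesp1 induction.

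The members are transcription factors best known from epithelial-mesenchymal transition, in which cells lose their junctions and polarity and become motile. Snail proteins are zinc finger repressors that bind the E-box CAGGTG, classically in the promoter of the E-cadherin gene Cdh1. Zeb proteins bind similar sites through paired zinc finger clusters, while Twist1, Twist2, Tcf15 and Scx are basic helix-loop-helix (bHLH) proteins that bind E-boxes together with E proteins. In the embryo these factors act in gastrulating mesoderm and in neural crest, and Snail and Twist genes act in the endocardial cushions, where endothelial cells of the heart become the mesenchyme of the valves. Tcf15 (paraxis) is known from somites and Scx (scleraxis) from tendon progenitors.

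The sequences just upstream of the bHLH and Snail members for which RefSeq's table gives a start (build GRCm38.p6) show whether they share an E-box near the start. The windows shown are the 250 bases before the start of Snai1 and Twist2, both more than 2-fold higher with dox, and of Twist1, which was not. Each is on the + strand, at chr2:167537945-167538194 for Snai1, chr1:91801211-91801460 for Twist2 and chr12:33957421-33957670 for Twist1. Capitals mark matches to the general E-box CANNTG, which was searched on both strands and includes the Snail site CAGGTG and its reverse complement CACCTG.
Snai1: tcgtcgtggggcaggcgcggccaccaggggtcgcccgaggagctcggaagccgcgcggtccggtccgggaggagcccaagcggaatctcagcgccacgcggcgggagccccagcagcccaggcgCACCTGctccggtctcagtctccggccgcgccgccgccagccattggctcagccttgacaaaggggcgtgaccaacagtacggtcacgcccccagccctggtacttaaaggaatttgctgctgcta
Twist2: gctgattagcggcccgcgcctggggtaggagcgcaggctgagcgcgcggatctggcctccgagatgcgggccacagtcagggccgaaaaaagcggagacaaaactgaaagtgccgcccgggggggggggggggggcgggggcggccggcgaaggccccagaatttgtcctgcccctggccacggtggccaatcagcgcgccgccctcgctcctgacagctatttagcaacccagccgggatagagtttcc
Twist1: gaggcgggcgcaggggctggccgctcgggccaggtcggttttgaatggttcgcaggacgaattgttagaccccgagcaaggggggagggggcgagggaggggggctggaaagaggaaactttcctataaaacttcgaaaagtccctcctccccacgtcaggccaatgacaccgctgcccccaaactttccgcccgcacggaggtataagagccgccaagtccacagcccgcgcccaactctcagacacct
The Snai1 window holds 1 E-box, and its letters are those of the Snail site, starting 126 bases before the start. The windows of Twist1 and Twist2 hold no CANNTG, nor do the 250-base windows of Zeb2. Windows of the remaining members, Zeb1 among them, were not examined here. In windows of this length, CANNTG occurs in 66.2% and CAGGTG in 17.2% of 32851 listed starts. The GC content is 70.0% for Snai1, 68.8% for Twist2 and 62.4% for Twist1, against a median of 52.4%, and base composition alters how often such letters occur. A match describes letters and was not tied to binding here.

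Each array gave 1 signal per probe set in arbitrary units, and the median signal of all probe sets was 112 without dox and 127 with dox. With 1 array per group there is no replicate error, no test and no p-value, and each value below compares these 2 arrays only. Differences are given as log2(signal + 16), dox minus no dox, and folds are derived from them, so the added 16 understates the change of dim genes. A difference of 2-fold or more is the size used to count genes. Different probe sets of 1 gene give an error within the arrays, and their differences had a pooled SD of 0.45 log2 units over 9010 genes (0.26 for probe sets with a mean signal of at least 500 and 0.51 for dimmer ones). It does not include variation between cultures. Mesp1 was 4.49-fold higher with dox (2433 without and 10977 with dox), and whether its probe set reads the transgene, the endogenous gene or both was not tested. Kdr and Tek, which encode Flk1 and Tie2, differed by log2 0.08 each.

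Some members were much higher with dox, 1 was lower and the others differed little. By the brightest probe set of each gene, Twist2, Snai1 and Snai2 were 2-fold or more higher, Tcf15 was just over 2-fold lower, and Twist1, Zeb1, Zeb2, Snai3 and Scx lay within 2-fold. Among all genes, 4.77% were 2-fold or more higher and 2.04% were 2-fold or more lower. The 3 of 9 members that were higher are a larger share than the background, and the 1 of 9 that was lower is a single gene. The members were chosen with earlier results of these data known, so the larger share is not independent support. The median log2 difference of the 9 members was 0.72, against 0.04 for all genes. By probe set, 4 of 19 were 2-fold or more higher (4.72% of all named probe sets) and 1 was lower (2.01%). In bulk RNA of a sorted fraction, more cells that express a gene and more RNA per cell cannot be told apart.

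**Figure D1:**
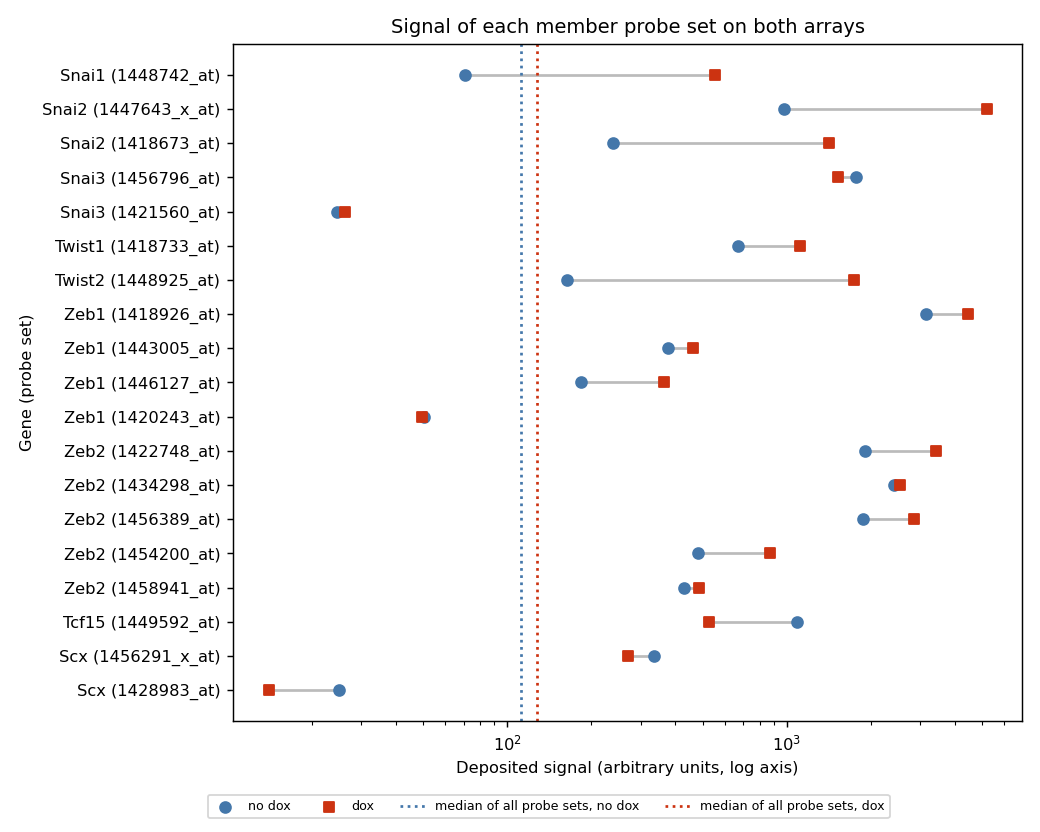
Deposited signal (arbitrary units, log axis) of each of the 19 probe sets without dox (circles) and with dox (squares), 1 array each; dotted lines mark the median signal of each array. The points for Snai1, both Snai2 probe sets and Twist2 lie far apart, while those for Zeb1, Zeb2 and Snai3 lie close together.

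Among the Snail genes, Snai1 and Snai2 were higher with dox and Snai3 was not. Snai1 encodes Snail, the repressor needed for mesoderm cells to leave the epithelium at gastrulation. Its only probe set (1448742_at) read 70.8 without dox, below that array's median, and 554 with dox, above it. The log2 difference was 2.72, or 6.57-fold. Because the signal without dox is dim, the size depended on the added constant and ranged from 2.20 to 2.95 over the scalings and constants tried.

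Snai2 encodes Slug, the Snail family member of neural crest and of early cushion mesenchyme. Its brighter probe set (1447643_x_at) had signals of 977 and 5188, 5.24-fold higher with dox. The suffix _x_at marks a probe set that may also match other transcripts, but the other probe set (1418673_at, designed on the RefSeq transcript) gave nearly the same change. Its signals were 238 and 1412, a 5.62-fold difference. The log2 differences of the 2 probe sets, 2.39 and 2.49, lay 0.10 apart, closer than the pooled SD between probe sets of a gene.

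Snai3, the third Snail paralogue, did not share this difference. Its brighter probe set (1456796_at, designed on an expressed sequence tag) read 1763 and 1524, which is -0.21 on the log2 scale. The probe set designed on its RefSeq transcript (1421560_at) was below the median on both arrays, with signals of 24.5 and 26.3, a difference of 0.06 whose sign changed with the scaling. Both probe sets thus gave differences smaller than the pooled SD.

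The Twist genes differed in size. Twist2 (Dermo1), a bHLH repressor of mesenchyme and dermis, had the largest difference of all members by its single probe set (1448925_at). It read 163 without dox and 1741 with dox, 9.80-fold higher, and both signals were above the array medians. With a log2 difference of 3.29 it ranked 67th from the top of 18193 genes, while Snai1 ranked 120th and Snai2 167th. Twist1, which is needed for cranial mesenchyme and acts in proliferating cushion cells, was measured by 1 probe set as well (1418733_at). Without and with dox it read 670 and 1116, a log2 difference of 0.72, or 1.65-fold. The difference of Twist1 was higher than that of all but 8.23% of genes, yet lay within 2-fold under every scaling and constant tried.

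**Figure D2:**
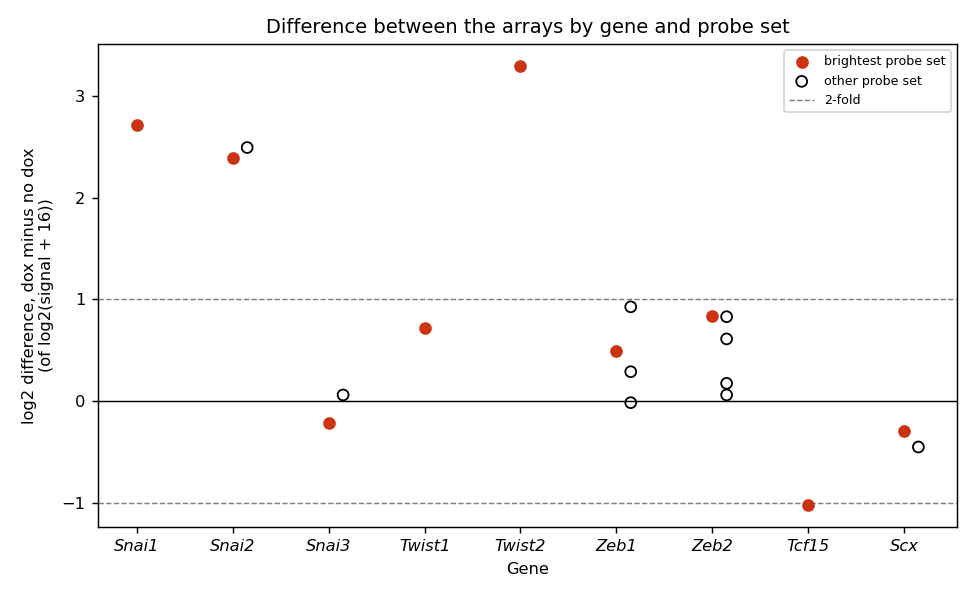
The log2 difference between the arrays (dox minus no dox, of log2(signal + 16)) for each gene; filled points are the brightest probe set, open points the others, and dashed lines mark 2-fold. Twist2, Snai1 and both Snai2 probe sets lie above 2, the 9 Zeb probe sets between -0.01 and 0.93, and Tcf15 at -1.02.

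No probe set of the Zeb genes reached 2-fold. Zeb1, a repressor of epithelial genes that forms a feedback loop with the miR-200 family, read 3154 and 4438 on its brightest probe set (1418926_at), higher by 0.49 on the log2 scale. A dimmer one (1446127_at) had 184 and 364 and gave 0.93, just short of 2-fold. Another (1443005_at) had 375 and 462 and gave 0.29. The last (1420243_at) was below the median on both arrays, with 50.4 and 49.7, and gave -0.01. The SD of the 4 differences was 0.40, similar to the pooled SD.

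Zeb2 (Sip1), which binds activated Smad proteins and also acts in blood stem cells, had 5 probe sets, all above the median on both arrays. The brightest (1422748_at) read 1904 and 3420, higher by 0.84. A probe set of 483 and 871 (1454200_at) gave 0.83 and one of 1868 and 2863 (1456389_at) gave 0.61. The remaining probe sets were nearly even, with 2427 and 2534 (1434298_at, 0.06) and 429 and 486 (1458941_at, 0.18). The 2 Zeb genes together had 8 of 9 probe sets on the higher side, with a median of 0.49. That count was 7 after quantile normalization and 6 when both arrays were brought to the same median, so the direction of the 2 nearly even Zeb2 probe sets is not settled.

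Tcf15 and Scx lay on the other side. Tcf15, the bHLH factor that makes somites epithelial, gave 1085 without dox and 528 with dox on its only probe set (1449592_at). The log2 difference of -1.02, or 2.02-fold lower, is at the edge of the size used and was -0.96 with an added constant of 64. It stayed below 0 under every scaling and constant tried, from -1.20 to -0.96. Of all genes, 1.95% were as low or lower.

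Scx read 334 and 270 on its brighter probe set (1456291_x_at), which may match other transcripts, and differed by -0.29 on the log2 scale. Its other probe set (1428983_at) was below the median on both arrays, at 24.98 and 14.03, and gave -0.45. Both were negative and each differed from 0 by less than the pooled SD of dim probe sets.

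**Figure D3:**
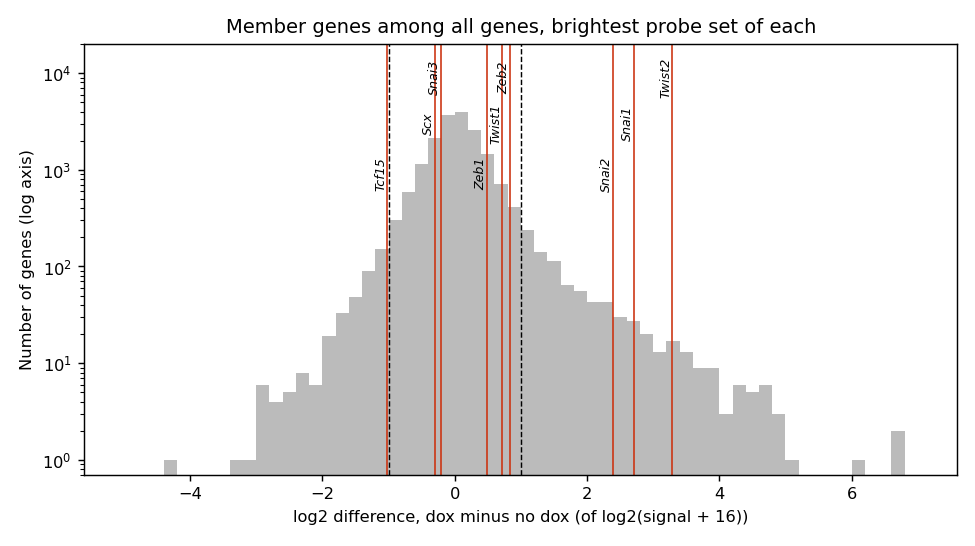
Histogram of the log2 difference (dox minus no dox, of log2(signal + 16)) of 18193 genes by their brightest probe set, with the number of genes on a log axis; solid lines mark the 9 members and dashed lines 2-fold. Twist2, Snai1 and Snai2 lie in the upper tail, Tcf15 at the lower 2-fold line, and the other 5 in the body of the distribution.

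All 9 genes had a probe set that reached its array's median on at least 1 array, as did 16 of the 19 probe sets, and only that of Snai1 did so through the dox array alone. Of the 8 probe sets designed on a RefSeq transcript, 1 for each gene but Scx, 3 were 2-fold or more higher, 1 was lower and the median was 0.78.

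Genes with the most similar difference were taken as those next in rank among 11794 genes that reached the median signal on at least 1 array. This is a likeness over only 2 samples. Next to Twist2 stood Corin (3.07 to 174) and Cyp2s1 (30.3 to 449) above, and Ak5 (22.5 to 358) and Cnn1 (1 to 147) below. Snai1 lay between 6430604M11Rik and Pmp22 above, with log2 differences of 2.72 and 2.73, and Myh7 and Smarcd3 below, both at 2.70. Snai2 lay between Fosl2 and Tgfb1i1, both at 2.40, and Pcdh17 and Rusc2, both at 2.39. Tcf15 lay between Tnfrsf14 (-1.02) and Cd46 (-1.01) above and Cfap45 and Tmem116, both at -1.02, below. Each neighbour of Twist2, and also 6430604M11Rik, Myh7 and Rusc2, was below the array median without dox. The ranks of these genes therefore depend on the added constant.

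Lists of related genes and cell type markers were counted next, and the shares over all genes are 4.77% higher and 2.04% lower. These lists are small, so a count of a few genes is weak beside those shares. They were also chosen with earlier results of these data known. Mesenchymal genes, which often accompany these factors, were higher in part. Of 28 measured mesenchymal and matrix genes, 14 were higher by 2-fold or more, 14 lay within 2-fold and none was lower by as much. The median log2 difference was 1.14. With a filter on both arrays 10 of 21 were higher, with a median of 0.74. Tagln, an actin-binding protein of smooth muscle, had signals of 96.7 and 3960 (log2 difference 5.14). Tgfbi, an adhesive matrix protein of the TGF-beta response, had 230 and 7760 (4.98), and Col5a2, a fibrillar collagen chain, had 144 and 4964 (4.96). The mesenchymal homeobox gene Prrx2 had 116 and 1237 (3.25), a value looked up after the results were seen, as were those that follow in this paragraph. Its paralogue Prrx1 lay within 2-fold on its brightest probe set, with 123 and 184 (0.52). The lowest and highest of the 6 Prrx1 probe sets were past 2-fold in opposite directions, so its direction is not settled. Some common mesenchymal marker genes were not among the higher ones: Vim, which encodes vimentin, differed by 0.03, Fn1 (fibronectin) by -0.08 and Cdh2 (N-cadherin) by -0.68. Other probe sets gave 0.35 for Fn1 and -0.07 for Cdh2. Vim read 18915 and 19349 and Fn1 14176 and 13369, where the highest signals on the arrays were 22018 and 22539. A 2-fold rise of Vim or Fn1 would lie above that range and could not be read here.

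Epithelial genes, among them classical targets of Snail and Zeb repression, were not lower as a list. Of 25 measured, 5 were 2-fold or more higher and 2 were lower, with a median of 0.05, and 13 were below the array medians on both arrays. Those higher included Pard6b, a polarity protein (307 to 1968, log2 2.62), the keratin Krt8 (1095 to 5934, 2.42) and desmoplakin, Dsp (1250 to 6329, 2.33). The other 2, named after their values were seen, were the keratins Krt18 (969 to 3467, 1.82) and Krt19 (105 to 305, 1.41). Dsp rests on its brightest probe set, since another gave 0.21. Both lower genes were dim, namely the splicing regulator Esrp1 (74.7 to 13.8, -1.60) and Marveld3 (38.9 to 9.44, -1.11), which were named after their values were seen because neither reached the median signal. Cdh1, looked up in the same way, had 110 and 63.8, dim on both arrays (-0.66). Marveld3 is lower by its brightest probe set only in part, since another gave 1.63 in the opposite direction. With the mean of all probe sets of each gene, 1 of the 25 was lower.

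Some partners of the bHLH members were higher as well. Of 19 measured E proteins, Id proteins and bHLH factors, 5 passed 2-fold on the higher side and none on the lower, and the median was 0.33. The count includes Mesp1, the gene that dox induces in this line, so its rise was set by the design. The others included Hand2, a partner of Twist1 (958 to 7568, 2.96), and Tcf21, a factor of epicardium (67.1 to 523, 2.70). However, other probe sets gave 0.35 for Hand2 and -0.53 for Tcf21. Of the Id genes, whose products hold E proteins away from DNA, Id2 and Id4 supplied the other 2. Id1 and Id3, also looked up, lay within 2-fold, at 0.285 and -0.07. Id4 had 129 and 507 (1.85) and Id2 had 5073 and 11941 (1.23), and both were picked out once their values were known. Another probe set of Id2 gave 0.10, and with the dimmest probe set of each gene 2 of the 19 were higher, Mesp1 among them. The E proteins themselves did not reach 2-fold on their brightest probe sets, at -0.35 for Tcf3, 0.25 for Tcf12 and 0.58 for Tcf4, likewise looked up. Other probe sets gave 1.09 for Tcf12, which is past 2-fold, and -0.28 for Tcf4.

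Corepressors and regulators of Snail protein showed no gene past 2-fold by the brightest probe sets, although 1 gene of each list was 2-fold lower when both arrays were brought to the same median. For 18 corepressors and chromatin partners, such as the CtBP, histone deacetylase and polycomb genes, the median was -0.11, with Ctbp1 at 0.14, Hdac1 at 0.04 and Ezh2 at -0.63. For 16 genes that act on Snail and Twist protein stability the median was 0.16. There the ubiquitin ligase gene Fbxl14 was lowest (906 to 485, -0.88) and the kinase gene Lats2 highest (2986 to 4939, 0.72). The single genes in this paragraph were named after their values were seen.

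Of 25 genes of signals that induce the members, 4 passed 2-fold on the higher side and none on the lower, with a median of 0.26. Bmp4, a BMP ligand of mesoderm, had signals of 720 and 3398 (2.21). Eng, a TGF-beta coreceptor of endothelium, had 1626 and 3922 (1.26), and the Notch ligand Jag1 had 703 and 1691 (1.25). The inhibitory Smad gene Smad7, named after its value was seen, had 3357 and 7515 (1.16). The TGF-beta ligands Tgfb1 and Tgfb2, also looked up, differed by 0.36 and 0.35. Other probe sets gave 0.69 for Jag1 and 0.77 for Smad7. The count of higher genes was 3 with the dimmest probe set of each gene, and also when both arrays were brought to the same median.

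Genes of the tissues in which these factors are known were counted in the same way. Of 20 endocardial cushion and valve genes, 9 passed 2-fold on the higher side and none on the lower, with a median of 0.86. Sox9, a factor of valve and cartilage mesenchyme, had 12.3 and 770 (4.80), but it was dim without dox, so the size depends on the added constant, and another probe set gave 1.25. Tbx20 had 426 and 9593 (4.44) and Gata4 had 111.64 and 1558 (3.62, or 1.40 by its other probe set). Has2, which makes the hyaluronan of cushion matrix, had 2520 and 7450 (1.56), named after its value was seen. With a filter on both arrays 5 of 15 cushion genes were higher, with a median of 0.39.

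In the paraxial mesoderm list, the setting of Tcf15, 3 of 19 passed 2-fold on the higher side and none on the lower, and 13 were below the array medians on both arrays. Only Foxc2 (762 to 2783, 1.85) of the higher ones was above them. Its paralogue Foxc1, named after its value was seen, was on the lower side (3264 to 1771, -0.88). In the tendon list, the setting of Scx, 2 of 16 were higher, Col14a1 (51.2 to 603, 3.21) and Tnc (20.2 to 152, 2.22), both of them dim without dox, and none was lower. Other probe sets gave -0.06 for Col14a1 and 0.84 for Tnc, and the count was 0 with the dimmest probe set of each gene or with a filter on both arrays. For both lists the median was small, 0.11 and 0.21.

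**Figure D4:**
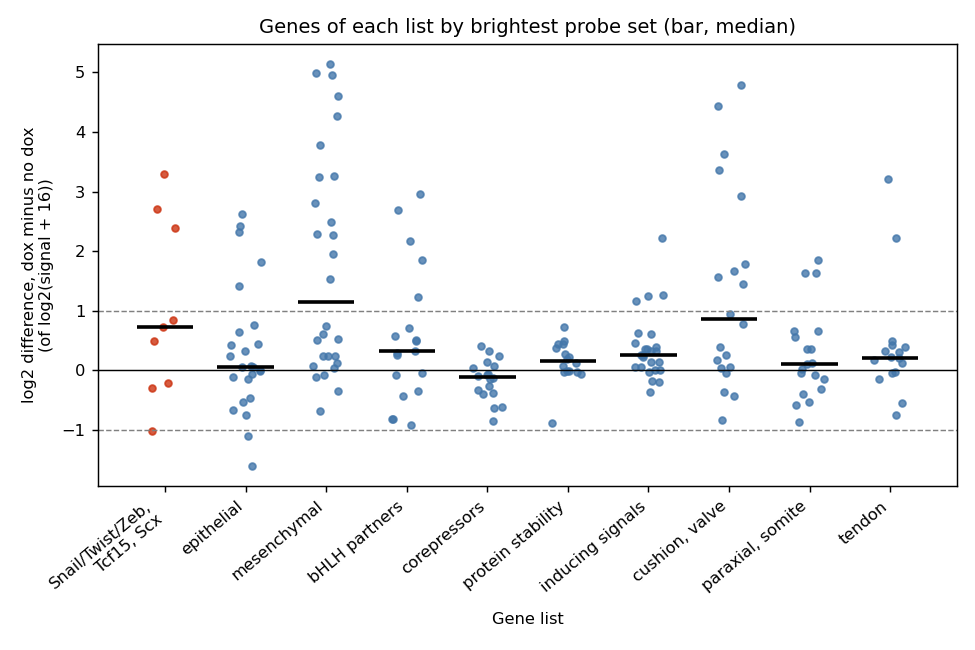
The log2 difference (dox minus no dox, of log2(signal + 16)) of each gene by its brightest probe set, grouped by list; bars are medians and dashed lines mark 2-fold. The medians are highest in the mesenchymal list (1.14), the cushion list (0.86) and the 9 members (0.72), and the corepressor and stability lists hold no point past 2-fold at the deposited scaling.

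Markers of other cell types differed in the same comparison, and some of them are also in the lists above. All 10 endothelial markers were above the array medians on both arrays, but Kdr and Tek among them are the genes of the sort. None was past 2-fold, and the summed signals of the 10 were 60103 without dox and 57879 with dox. Of 9 fibroblast and mesenchyme markers, 6 were 2-fold or more higher, and their summed signal went from 2365 to 22275. Of 8 smooth muscle markers, 4 were higher and 2 were lower (6709 to 20419), with Cnn1 and Lmod1 at the floor of 1 without dox. Of 10 cardiomyocyte markers, 5 were higher (965 to 4678), while Nppa was near 8 on both arrays. With a filter on both arrays 2 of 4 cardiomyocyte markers were higher, and with the dimmest probe set of each gene 3 of 10 were. Other probe sets gave 0.33 for Myl4 and 0.55 for Tnnt2. Of 9 blood markers 3 were lower (10901 to 6709), and Ptprc was dim on both arrays, at 15.9 and 1.80. None of 6 neural crest markers was past 2-fold (933 to 744) and none of 6 pluripotency markers was (693 to 783). Of 8 endoderm and epithelium markers only Krt8 was (11313 to 16625). The part of such cells in the higher signals of Snai1, Snai2 and Twist2 was not tested.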

How the data were processed

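Per the labels' protocols, RNA of sorted cells (100 ng each) was labelled with biotin and hybridised to Affymetrix 3' arrays. The authors deposited 1 linear signal intensity per probe set (45037 probe sets, 2 arrays). Their summarisation and scaling are not given in the sources used here. The lowest intensity in both columns is 1. Probe sets were named from GEO's platform annotation: 34945 had 1 symbol, 932 had several and 9160 had none, and only those with 1 were used. Symbols were updated through RefSeq gene numbers (GRCm38.p6), and all 9 members matched.

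Intensities were analysed as log2(signal + 16) without a signal filter, since a filter on the brighter array favours genes that differ. Genes were read from their brightest probe set. Members, lists, markers and tests were chosen with earlier results of these data known. Named genes are all members, Mesp1, Kdr, Tek, up to 3 higher and 3 lower genes per list that are past 2-fold and reach their array's median, the 2 genes on either side of each differing member in rank, and the cell type markers. Of 271 list entries, 262 had a named probe set. Alternatives were added constants of 1 and 64, 3 scalings, signal filters, other choices of probe set and fold sizes of 1.5 and 4. The procedure was tested on simulated data in which 200 bright genes were changed 4-fold under noise of 0.25 log2 units. That noise is below the pooled SD of 0.45, so the simulation checks the code only. It does not cover dim genes or differences near 2-fold. Python 3.11.15, numpy 2.4.6 and pandas 2.3.3 were used.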

Additional observations from a re-analysis of the deposited data

How the results depend on the processing

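Every value compares 2 arrays, so nothing here measures variation between cultures, and without detection calls a dim signal cannot be told from background. Over 5 scalings and added constants, 94 of 95 member probe set differences moved by less than the pooled SD between probe sets of a gene. The exception was Snai1, at 2.20 with a constant of 64. The 3 higher genes and 4 higher probe sets became 5 and 9 at a size of 1.5-fold. Tcf15, the 1 lower gene and probe set, was past the size in 0 cases with a constant of 64 or a size of 4-fold. The median of the 9 members was 0.18 with the dimmest probe set of each gene.

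Bringing both arrays to the same median shifted the median of all genes from 0.04 to -0.11, and changed the genes 2-fold higher and lower from 867 and 372 to 681 and 578 (750 and 486 after quantile normalization). With a constant of 1 these counts were 1419 and 845, and with 64 they were 579 and 185. With a filter on the brighter array, which favours genes that differ, the median was 0.60 for epithelial and 1.95 for mesenchymal genes. With a filter on both arrays it was 0.43 for epithelial, 0.74 for mesenchymal and 0.39 for cushion genes. The dimmest probe set of each gene gave a median of 0.85 for mesenchymal genes. The smooth muscle markers, whose median was 1.51 over 8 genes, had a median of -1.10 when filtered on both arrays, which left 3 genes. Of 340 list counts under the alternatives, 308 stayed within 1.5 times and 32 did not. Many of the counts were 0 to begin with, and a 0 that stayed 0 is among the 308, so this number does not measure robustness. No paired analysis was possible because each group has 1 array.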
